A study of Homo sapiens and Mus musculus with 15 samples.

Results

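Cytosolic ribosomal protein genes were examined in 15 RNA libraries of 2 myeloma lines that were made resistant to proteasome inhibitors or left drug-naive. The genes were chosen by symbol, taking every numbered RPL and RPS gene, with A and X variants, and the P-stalk genes RPLP0, RPLP1 and RPLP2, and leaving out RPS27A, whose product is fused to ubiquitin. A gene was kept as a member if its mean was 10 CPM or more in the naive libraries of the line, where CPM is the read count scaled to the library's reads on genes and its TMM factor (trimmed mean of M values). Of 23329 mouse and 23346 human genes listed, 75 symbols matched in each table, and 71 in each line were members, 43 of the large and 28 of the small subunit. All 71 members of each line passed the filter on low counts and entered the tests, beside 11974 mouse and 13910 human genes in all. By symbol, 67 members were shared by the lines.

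The groups, each of 3 libraries, were bortezomib-resistant (BR) and naive cells of 5TGM1, a mouse line passaged from a spontaneous plasma cell tumour of C57Bl/KaLwRij mice, and bortezomib-resistant (BR), carfilzomib-resistant (CR) and naive cells of RPMI-8226, a human myeloma line called 8226 here. Resistant cells were raised in rising drug over months and kept in 20 nM bortezomib (5TGM1 BR), 10 nM bortezomib (8226 BR) or 10 nM carfilzomib (8226 CR). The labels state that all lines were used within a month of thawing and that drug was withdrawn 5 days before RNA extraction. The labels describe a single line per resistant group, so the drug, the resistance and the derivation cannot be told apart, and the labels do not say whether the 3 replicates were grown apart. A p-value here sets a difference against library-to-library spread, which may be technical.

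Ribosomal proteins assemble with ribosomal RNA into the large subunit, which joins amino acids, and the small subunit, which reads the mRNA. Their mRNAs typically begin with a cytidine followed by a run of pyrimidines, the terminal oligopyrimidine motif, through which LARP1 and the kinase complex mTORC1 set their translation and stability. Ribosomal proteins made in excess of their partners are degraded by the proteasome, the target of both drugs.

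Reads on genes totalled 49157882 to 57896736 per library in 5TGM1 BR and 49097494 to 72288680 in naive 5TGM1, and 31709636 to 34339788 in 8226 BR, 41964250 to 58419576 in 8226 CR and 39032731 to 46874782 in naive 8226. Plasma cell markers were present, with 6 of 7 at 1 CPM or more in each 5TGM1 group and 8 of 8 in each 8226 group. Their summed level was 4936 to 5032 CPM in 5TGM1 BR and 3913 to 4120 CPM in naive 5TGM1, and 1711 to 1748 CPM in 8226 BR, 1532 to 1592 CPM in 8226 CR and 2353 to 2545 CPM in naive 8226. Single markers were called both ways against naive cells. In 5TGM1 BR 3 of 6 tested were higher and 2 lower, where 34% of all genes were higher and 33.2% lower. In 8226 BR 3 of 8 were higher and 5 lower (all genes 38.2% and 41.6%), and in CR 1 and 7 (35% and 36.7%). The 7 macrophage markers summed to 16.8 to 18.1 CPM in 8226 BR, 11.1 to 11.7 CPM in 8226 CR and 1.61 to 2.13 CPM in naive 8226, with FCGR3A at 0 in all of these groups. In 8226 BR nearly all of this was EMR1, with 16.7 ± 0.695 CPM in BR and 0.529 ± 0.0663 CPM in naive cells, while MPEG1 was lower, with 0.0189 ± 0.0164 CPM and 0.905 ± 0.245 CPM. In 8226 CR it was EMR1 (6.38 ± 0.233 CPM) and MPEG1 (4.71 ± 0.494 CPM). The 6 T cell markers summed to 12.1 to 13.6 CPM in 8226 BR, 7.41 to 7.89 CPM in CR and 5.74 to 6.63 CPM in naive 8226. Of these, 2 were at 1 CPM or more in BR, 1 in CR and 2 in naive cells. The 5 erythroid markers summed to 3.46 to 6.32 CPM in naive 8226, and to 0.0292 CPM or less in BR and 0.0483 CPM or less in CR. The part of all these markers in the results was not tested.

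The start of a gene is where the pyrimidine run would lie, so 30 bases around the annotated start are shown for members whose values are described below, written 5′ to 3′ on the strand of the gene, from RefSeq on GRCh38.p14. Capitals mark the longest run of C and T that touches the 10 bases on either side of the annotated start, as far as it lies within the window. Where runs tie, only the first is in capitals.
RPLP1: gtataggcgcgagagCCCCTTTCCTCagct
RPL4: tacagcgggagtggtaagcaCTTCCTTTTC
RPLP0: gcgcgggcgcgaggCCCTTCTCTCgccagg
RPS3: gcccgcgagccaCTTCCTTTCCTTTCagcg
RPL13A: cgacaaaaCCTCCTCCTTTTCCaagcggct
RPL7A: ccacaaTTCCCTTTCCTTTCTCTCTCCTCC
RPS23: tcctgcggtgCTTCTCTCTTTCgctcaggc
RPS14: ccgccccctcccaCTCTCTCTTTCCggtgt
RPL13: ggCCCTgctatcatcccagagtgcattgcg
RPL15: ggcgctggggcctgctggaggagCTTCacg
They lie at chr15:69452803-69452832 (+) for RPLP1, chr15:66504841-66504870 (-) for RPL4, chr12:120201097-120201126 (-) for RPLP0, chr11:75399503-75399532 (+) for RPS3, chr19:49487593-49487622 (+) for RPL13A, chr9:133348203-133348232 (+) for RPL7A, chr5:82278340-82278369 (-) for RPS23, chr5:150449725-150449754 (-) for RPS14, chr16:89560642-89560671 (+) for RPL13 and chr3:23916530-23916559 (+) for RPL15. The longest run near the annotated start was 4 bases in RPL13 and RPL15 and 25 bases in RPL7A, and the runs of RPL4 and RPL7A continue past the end of the window. In RPL13 a run of the same length, tccc, spans the annotated start and is not in capitals. Whether the annotated starts are those used in these cells was not tested.

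Of the 71 human members, 57 had a RefSeq promoter window of the same layout. A C and T run of 5 or more bases touched the start in 53 of them (93.0%), against 47.2% of all 27305 windows, and a run of 10 or more in 71.9%, against 7.93%. The median run was 11 bases in members and 4 bases over all windows. CCGGAAG, a motif bound by ETS factors such as GABPA, was found on either strand of the 300 base window in 35.1% of members and in 10.7% of all windows, and GGGCGG, bound by SP1, in 56.1% and 44.6%. Neither motif contains the other. Run length and the log2 fold change in 8226 BR against naive cells had a Pearson correlation of -0.023 across these genes, which share the same libraries.

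Reads on ribosomal protein genes made up more of the 5TGM1 BR libraries and less of both resistant 8226 groups than of their naive libraries. Large-subunit members took 6.10%, 6.19% and 6.10% of gene reads in 5TGM1 BR, against 5.54%, 5.03% and 5.31% in naive 5TGM1, and small-subunit members 4.11%, 4.20% and 4.17%, against 3.88%, 3.49% and 3.66%. In both subunits every BR library lay above every naive library. In 8226 the large-subunit share was 3.20%, 3.02% and 3.39% in BR and 3.24%, 3.57% and 3.11% in CR, against 4.03%, 4.40% and 4.48% in naive cells. The small-subunit share was 1.69%, 1.65% and 1.84% in BR and 1.68%, 1.81% and 1.63% in CR, against 1.97%, 2.16% and 2.23% in naive cells. All 6 resistant libraries lay below all naive libraries in both subunits, and BR and CR overlapped. The ratio of small-subunit to large-subunit CPM was 0.673 to 0.683 in 5TGM1 BR and 0.689 to 0.700 in naive 5TGM1, and 0.529 to 0.546 in 8226 BR, 0.507 to 0.524 in 8226 CR and 0.489 to 0.498 in naive 8226. These ranges did not overlap within either line, and the 8226 order was the reverse of the 5TGM1 order. In 8226 the ratio was higher in both resistant groups than in naive cells. Sums give abundant members most weight. RPL4 (3997 CPM in naive 8226 and 1554 CPM in BR) and RPLP1 (2665 and 770 CPM) fell most in BR. The ratio without them was not computed, so in BR no shift of a whole subunit is read from it. In bulk RNA, fewer cells of a kind and less RNA per cell cannot be told apart.

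**Figure D1:**
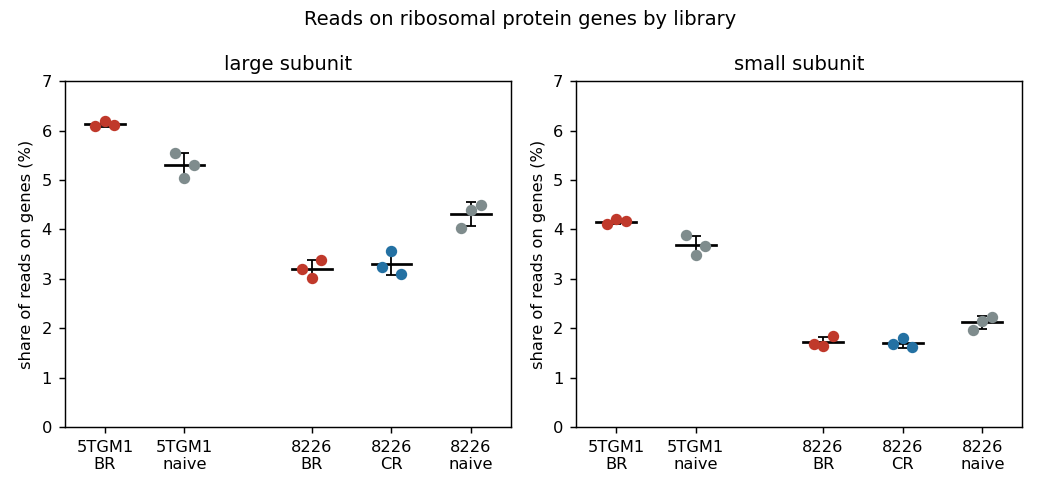
Share of reads on genes (%, y axis) that fell on large-subunit (left) and small-subunit (right) members in each library of the 5 groups. Points are libraries, and bars give the mean and SD of 3. The 5TGM1 BR points lie above the naive ones, and both resistant 8226 groups lie below naive 8226.

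In 5TGM1 BR cells most ribosomal protein genes were modestly higher than in naive cells. Of the large-subunit members 34 of 43 rose and 1 fell, and of the small-subunit members 23 of 28 rose and 1 fell, where 34% of all genes tested were higher and 33.2% lower at an adjusted p below 0.05. The median log2 fold change was 0.19 for the large subunit and 0.20 for the small, against 0.0045 over all genes, and the values ran from -0.89 to 0.67. BR and naive libraries were fully separated for 30 of 43 large-subunit members (69.8%) and 25 of 28 small-subunit members (89.3%), against 69.7% of all genes. The large-subunit share was thus at the background.

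The largest rise was of Rpl5, whose product binds the 5S ribosomal RNA together with that of Rpl11 and, unassembled, binds the p53 regulator MDM2. Rpl5 had 1260.3, 1259 and 1220.4 CPM in 5TGM1 BR, against 796, 756 and 802 CPM in naive 5TGM1, a log2 fold change of 0.67 ± 0.0404 (SE, edgeR adjusted p = 3.70e-10). Its partner Rpl11 had 1398, 1455 and 1379.5 CPM, against 1374, 1205 and 1319.6 CPM, a change of 0.12 ± 0.0483 (edgeR adjusted p = 0.0390). The BR libraries of Rpl5 were far above the naive ones, while those of Rpl11 were only just above, and the call of Rpl11 was lost without naive replicate 2 (0.063, edgeR adjusted p = 0.234), naive replicate 3 (0.13, edgeR adjusted p = 0.0543), BR replicate 1 (0.13, edgeR adjusted p = 0.0589) or BR replicate 2 (0.097, edgeR adjusted p = 0.149), and with median-of-ratios factors (0.11, edgeR adjusted p = 0.0514). Rpl41, the shortest ribosomal protein, had 2194, 2131 and 2327 CPM, against 1727, 1398 and 1523 CPM (0.52 ± 0.0615, edgeR adjusted p = 1.48e-06), with no overlap. Rpl35a rose by 0.42 ± 0.0498, Rps12 by 0.38 ± 0.0536, Rps29 by 0.36 ± 0.0517 and Rps15a by 0.34 ± 0.0445 on the log2 scale. Among members chosen for their role, Rpl22 rose by 0.39 ± 0.0565, Rpl3 by 0.25 ± 0.0406, Rps14 by 0.25 ± 0.0506, Rps3 by 0.21 ± 0.0467, Rpl4 by 0.19 ± 0.0440, Rps19 by 0.17 ± 0.0461 and Rps6 by 0.15 ± 0.0409. Rps2 rose by 0.10 ± 0.0424, a call that was lost with median-of-ratios factors (0.095, edgeR adjusted p = 0.0622) and without any 1 library other than naive replicate 3, the value without naive replicate 2 being 0.065, edgeR adjusted p = 0.203.

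Only Rpl15 and Rps24 were called lower among the 71 members of 5TGM1. Human RPL15 and RPS24 are both mutated in Diamond-Blackfan anaemia, a failure of red cell formation. Rpl15 had 168, 168 and 163 CPM in BR, against 320.2, 289 and 317 CPM in naive cells, 1.86-fold lower (log2 -0.89 ± 0.0447, edgeR adjusted p = 3.23e-11). Rps24 had 1238, 1332 and 1283 CPM, against 2075, 1827 and 2031 CPM, 1.54-fold lower (log2 -0.62 ± 0.0497, edgeR adjusted p = 1.23e-08). The groups did not overlap for either gene. RPL15 and RPS24 also fell in both resistant human groups, as most members did there. In 8226 BR 62 of 71 members were called lower and in 8226 CR 57 of 71, against 41.6% and 36.7% of all genes. The human fall is therefore not particular to these genes. RPL15 had 787, 713 and 769 CPM in 8226 BR and 866, 950.2 and 769 CPM in 8226 CR, against 1201, 1511 and 1299 CPM in naive 8226, and RPS24 had 712, 645 and 690.2 CPM and 621, 706 and 539.8 CPM, against 904, 1099 and 888 CPM. The log2 fold changes were -0.82 ± 0.0857 and -0.63 ± 0.0853 for RPL15 and -0.50 ± 0.0927 and -0.63 ± 0.0928 for RPS24.

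In 8226 BR cells nearly all ribosomal protein genes were lower than in naive cells. Of the large-subunit members 40 of 43 fell and 1 rose, and of the small-subunit members 22 of 28 fell and 0 rose, where 38.2% of all genes tested were higher and 41.6% lower. The median log2 fold change was -0.54 for the large subunit and -0.43 for the small, against -0.03 over all genes. Values ran from -1.79 to 0.22, a wider spread than in 5TGM1 (SD 0.35 and 0.26, against 0.21 and 0.18). The SD over all genes tested was wider too, at 2.78 in 8226 BR against 0.82 in 5TGM1 BR. The libraries did not overlap for 37 of 43 large-subunit members (86.0%) and 21 of 28 small-subunit members (75%), shares near the 79.6% of all genes. Without TMM factors the median of all genes was 0.16 and the members called lower were 28 large and 15 small, with 58.8% of all calls higher, against 47.9% with TMM. Relative to the median of all genes the members were at -0.51 (large) and -0.40 (small) with either scaling. A change of scaling shifts all genes nearly alike, so this could hardly differ and is no check of the counts. Reads on no annotated feature made up 14.9% to 16.6% of 8226 BR libraries, 10.8% to 12.8% of CR and 10.4% to 12.9% of naive libraries, and their part in the result was not tested. Without naive replicate 3, in which RPL39, RPS29, RPLP2 and RPS19 were among the high members, 37 large and 20 small members were lower.

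The P-stalk, through which elongation factors reach the large subunit, changed unevenly. RPLP1 had 752, 709 and 850.3 CPM in 8226 BR, against 2467, 2359 and 3169.6 CPM in naive 8226, and was 3.46-fold lower (log2 -1.79 ± 0.102, edgeR adjusted p = 2.02e-10). RPLP0, which anchors the stalk, had 1018, 965 and 1100.0 CPM, against 1888, 2096 and 2296 CPM (-1.03 ± 0.0732, edgeR adjusted p = 3.33e-09). RPLP2, which pairs with RPLP1, had 525, 478 and 588 CPM, against 644, 609 and 852 CPM (-0.40 ± 0.121, edgeR adjusted p = 0.00653). All 3 fell without overlap between the groups, and RPLP2 fell the least, with -0.24 without naive replicate 3, and its call was lost with library sizes alone (-0.22, edgeR adjusted p = 0.111). In 5TGM1 BR the same 3 genes rose, Rplp0 by 0.17 ± 0.0438, Rplp1 by 0.26 ± 0.0499 and Rplp2 by 0.18 ± 0.0443.

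**Figure D2:**
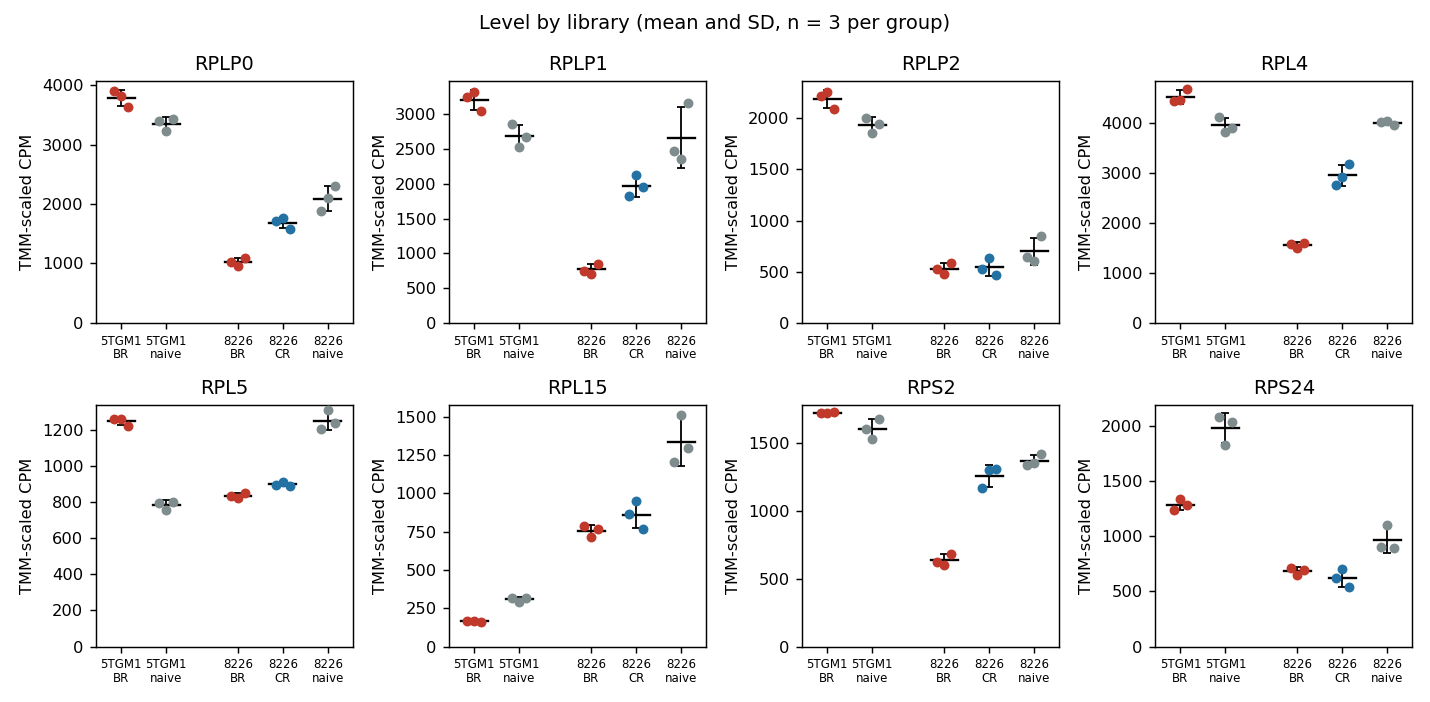
TMM-scaled CPM (y axes, each from 0) of 8 named members in every library of the 5 groups, with the mean and SD of 3 libraries. RPLP1, RPL4 and RPS2 are lowest in 8226 BR and lie higher in 8226 CR, whereas RPL15 and RPS24 are lower in every resistant group than in its naive group.

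Of the proteins that enter the large subunit early, RPL4, whose loop lines the exit tunnel, had 1584, 1491 and 1587 CPM in 8226 BR, against 4005, 4026 and 3960.0 CPM in naive cells, 2.57-fold lower (log2 -1.36 ± 0.0592, edgeR adjusted p = 7.52e-12). RPL3, which reaches the peptidyl transferase centre, had 1405, 1354 and 1451 CPM, against 2098, 2336 and 2141 CPM (-0.64 ± 0.0544, edgeR adjusted p = 2.59e-08). The 5S partners RPL5 and RPL11 both fell, with log2 fold changes of -0.58 ± 0.0496 and -0.37 ± 0.112, the second at -0.24 without naive replicate 2 and not called with library sizes alone (-0.18, edgeR adjusted p = 0.139). RPL22, an RNA-binding protein at the outer face, had 76.1, 73.5 and 74.2 CPM, against 117, 142 and 111 CPM (-0.73 ± 0.0739). In each of these genes every BR library lay below every naive library.

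In the small subunit the largest falls were of RPS2 and RPS3, at the mRNA entry channel, and RPS25, known for its part in internal initiation. RPS2 had 621, 599 and 684 CPM in 8226 BR, against 1338, 1354 and 1415 CPM in naive cells (-1.11 ± 0.0630, edgeR adjusted p = 2.03e-10). RPS3 had 1054, 1053 and 1149 CPM, against 1785, 2012 and 2129 CPM (-0.86 ± 0.0641, edgeR adjusted p = 5.34e-09), and RPS25 fell too (-0.85 ± 0.0687). RPS6, the substrate of the S6 kinases, had 1113 ± 49.8 CPM, against 1496 ± 123 CPM (SD, n = 3 each, log2 -0.43 ± 0.0610). RPS19, the gene most often mutated in Diamond-Blackfan anaemia, had 445 ± 47.3 CPM, against 548 ± 91.7 CPM (-0.30 ± 0.104, edgeR adjusted p = 0.0153), a call lost without naive replicate 3 (-0.16, edgeR adjusted p = 0.0884) or BR replicate 2 (-0.23, edgeR adjusted p = 0.0807) and with library sizes alone (-0.11, edgeR adjusted p = 0.319). RPS27 had 638 ± 70.9 CPM, against 901 ± 157 CPM (-0.50 ± 0.162, edgeR adjusted p = 0.0110), and its call was lost without BR replicate 2 (-0.41, edgeR adjusted p = 0.0520) and with library sizes alone (-0.31, edgeR adjusted p = 0.0893).

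The 8 members that did not pass the test in 8226 BR included RPL31, RPL39, RPS3A, RPS14, RPS20, RPS21 and RPS29, and RPL13 was the member called higher. RPS14, whose loss marks the anaemia of chromosome 5q deletion, had 875, 867 and 959.7 CPM in BR, against 801, 830.5 and 1031 CPM in naive cells (0.021 ± 0.0846, edgeR adjusted p = 0.825). RPL13 had 749, 715 and 875 CPM, against 658, 589.8 and 768 CPM (0.22 ± 0.0927, edgeR adjusted p = 0.0441). The groups overlapped in both genes, and the RPL13 call was lost without naive replicate 1 (0.20, edgeR adjusted p = 0.117), naive replicate 2 (0.13, edgeR adjusted p = 0.180), BR replicate 1 (0.24, edgeR adjusted p = 0.0504) or BR replicate 3 (0.13, edgeR adjusted p = 0.231), and with median-of-ratios factors, DESeq2 or only the 6 libraries compared. RPL39, in the exit tunnel, had 319, 279 and 296 CPM, against 213, 218 and 447 CPM, with naive replicate 3 far above the other naive libraries. Without that library its log2 fold change was 0.47, edgeR adjusted p = 0.000324, against 0.028 ± 0.210 with it.

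**Figure D3:**
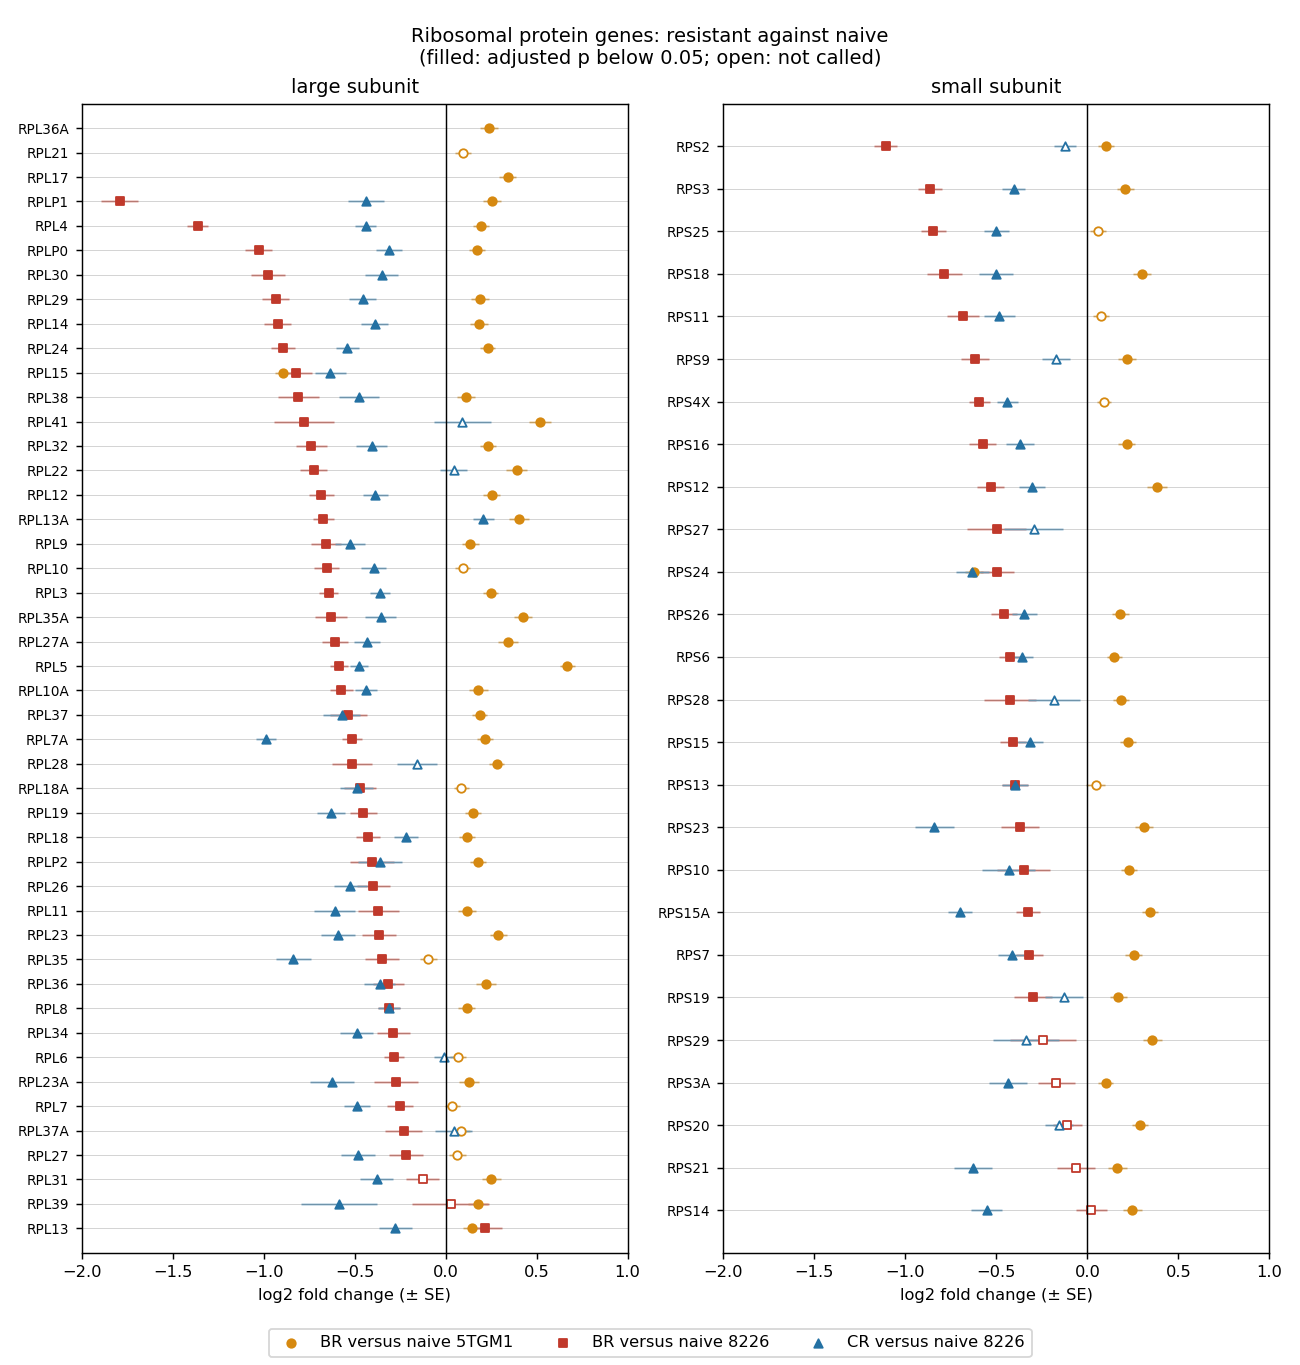
Log2 fold change with SE (x axis) of the members for 5TGM1 BR, 8226 BR and 8226 CR, each over naive cells of its line, large subunit left and small subunit right, ordered by the 8226 BR value, with genes that were no members in 8226 at the top. Filled symbols passed an adjusted p below 0.05. Orange 5TGM1 points lie mostly right of 0, and red and blue 8226 points mostly left.

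In 8226 CR cells 37 of 43 large-subunit members fell and 1 rose, and 20 of 28 small-subunit members fell and 0 rose, where 35% of all genes tested were higher and 36.7% lower. The median log2 fold change was -0.44 (large) and -0.38 (small), against -0.0036 over all genes. The libraries did not overlap for 34 large-subunit members (79.1%) and 22 small-subunit members (78.6%), shares near the 73.1% of all genes. RPL7A had 969, 1044 and 1001 CPM in CR, against 1894, 2041 and 2042 CPM in naive cells, 1.98-fold lower (log2 -0.99 ± 0.0559, edgeR adjusted p = 3.15e-10). RPS23, at the decoding centre, had 733, 915 and 637 CPM, against 1303, 1268 and 1521 CPM (-0.84 ± 0.106, edgeR adjusted p = 3.54e-06). RPL35, at the tunnel exit, had 626, 639.7 and 540.0 CPM, against 942, 1091 and 1190.0 CPM (-0.84 ± 0.0941, edgeR adjusted p = 1.05e-06). The groups did not overlap for any of the 3. RPS15A fell too (-0.70 ± 0.0651). RPL13A, which can leave the ribosome to silence inflammatory mRNAs, was the member called higher, with 194, 199 and 196 CPM in CR, against 162, 167 and 180.5 CPM in naive cells (0.21 ± 0.0565, edgeR adjusted p = 0.00411).

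Of the members described for BR, RPLP1 (-0.44 ± 0.0987), RPLP0 (-0.31 ± 0.0725), RPL4 (-0.44 ± 0.0582), RPL3 (-0.36 ± 0.0542) and RPS3 (-0.40 ± 0.0637) also fell in CR. RPS2 had 1165, 1297 and 1311 CPM in CR (-0.12 ± 0.0621, edgeR adjusted p = 0.0903), RPL22 126, 127 and 129 CPM (0.044 ± 0.0725, edgeR adjusted p = 0.597) and RPS19 501 ± 46.5 CPM (-0.13 ± 0.104, edgeR adjusted p = 0.275), and these 3 did not pass the test. The CR libraries of RPS2 all lay below the naive ones, and it was called lower with median-of-ratios factors (-0.15, edgeR adjusted p = 0.0447) and with DESeq2 (-0.15, DESeq2 adjusted p = 0.0373). RPL5 (-0.48 ± 0.0495), RPL11 (-0.61 ± 0.112), RPS6 (-0.36 ± 0.0610) and RPS14 (-0.55 ± 0.0848) fell. RPL22 was called higher without naive replicate 2 (0.16, edgeR adjusted p = 0.0101). RPLP2 was called lower (-0.36 ± 0.121, edgeR adjusted p = 0.0145) but not without naive replicate 3 (-0.20, edgeR adjusted p = 0.0775), CR replicate 1 (-0.33, edgeR adjusted p = 0.0568) or CR replicate 3 (-0.26, edgeR adjusted p = 0.0850). RPS27 varied between CR libraries, with 692, 970.2 and 543 CPM, and was not called (-0.29 ± 0.162, edgeR adjusted p = 0.116), though it was without CR replicate 2 (-0.54, edgeR adjusted p = 0.00196).

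The CR and BR cells of 8226 were tested against each other directly, since their changes share the naive libraries. Of the large-subunit members 21 of 43 were higher in CR and 10 lower, and of the small-subunit members 10 of 28 were higher and 5 lower, where 39.9% of all genes were higher and 37% lower. The median log2 difference, CR over BR, was 0.17 (large) and 0.10 (small), against 0.02 over all genes, and 39 of 71 members did not overlap, against 79.8% of all genes. These shares of members called higher were near the background and the shares called lower were below it, and the values below describe single members. Without TMM factors the counts were 14 higher and 13 lower (large) and 5 higher and 8 lower (small). The share of calls over all genes that were higher was then 43.9%, against 51.9% with TMM, and the small-subunit median was -0.02. The large-subunit members called lower were 4 without CR replicate 3, 5 without CR replicate 1 and 6 without BR replicate 3, and the small-subunit members called higher were 6 without CR replicate 2.

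RPLP1 stood highest in CR over BR, with 1823, 2123 and 1957 CPM in CR, against 752, 709 and 850.3 CPM in BR, 2.55-fold higher (log2 1.35, edgeR adjusted p = 6.16e-09). RPS2 had 1165, 1297 and 1311 CPM, against 621, 599 and 684 CPM (0.99 ± 0.0628, edgeR adjusted p = 9.64e-10), and RPL4 2747, 2916 and 3176 CPM, against 1584, 1491 and 1587 CPM (0.92 ± 0.0587). In these genes no CR library overlapped a BR library. RPL13A was higher in CR by 0.88 ± 0.0573, RPL22 by 0.77 ± 0.0737, RPLP0 by 0.71 ± 0.0728 and RPS3 by 0.46 ± 0.0638, while RPLP2 did not pass the test (0.043 ± 0.121, edgeR adjusted p = 0.764). In the other direction RPS14 had 614, 642 and 559 CPM in CR, against 875, 867 and 959.7 CPM in BR (-0.57 ± 0.0849, edgeR adjusted p = 1.62e-05). RPL39 (-0.61 ± 0.211), RPS21 (-0.56 ± 0.103), RPL13 (-0.49 ± 0.0928), RPL35 (-0.49 ± 0.0938) and RPS23 (-0.47 ± 0.105) were also lower in CR, RPL39 not without CR replicate 3 (-0.49, edgeR adjusted p = 0.0790) or with DESeq2 (-0.61, DESeq2 adjusted p = 0.101).

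The bortezomib-resistance change was then compared between the lines over 11849 genes whose symbols match ignoring case, which is not a table of orthologues. The 8226 change was called below the 5TGM1 change for 36 of 40 large-subunit and 23 of 27 small-subunit members, and above it for 0, where 30.5% of all genes were called higher and 34.4% lower. Whether called or not, the difference was negative for 38 large and 26 small members and positive for 2 and 1. The median difference was -0.74 (large) and -0.63 (small), against -0.05 over all genes. The largest were of RPLP1 (-2.05 ± 0.128), RPL4 (-1.56 ± 0.0737), RPL41 (-1.30 ± 0.147), RPS2 (-1.21 ± 0.0788), RPS18 (-1.09 ± 0.114) and RPS3 (-1.07 ± 0.0917). RPL41 was low in the human line, with means of 18.0 CPM in 8226 BR and 30.8 CPM in naive 8226. In 5TGM1 its means were 2217 CPM in BR and 1549 CPM in naive cells. Without TMM factors 30 large and 19 small members were lower and 1 of each higher, with 58.2% of all calls higher, against 47.0% with TMM. The 8 members that did not differ past the threshold were RPL13, RPL15, RPL35, RPL39, RPS3A, RPS14, RPS21 and RPS24. Without naive replicate 3 of 8226, RPL39 was called above 0 (0.29, edgeR adjusted p = 0.00809), and without naive replicate 2 of 8226, RPS24 was (0.23, edgeR adjusted p = 0.0167). Without naive replicate 1 of 8226, RPL35 (-0.34, edgeR adjusted p = 0.00886) and RPS14 (-0.30, edgeR adjusted p = 0.0242) were called below 0, and without naive replicate 2 of 8226, RPS21 was (-0.32, edgeR adjusted p = 0.0187). RPL35 was also called without BR replicate 3 of 8226 (-0.35) or naive replicate 1 of 5TGM1 (-0.31), and RPS14 without BR replicate 3 (-0.27) or naive replicate 2 (-0.27) of 8226. Across the 67 shared symbols the change in one line and that in the other had a Pearson correlation of -0.0039 and a Spearman correlation of -0.11, as a description over genes. RPL5 rose most in 5TGM1 (0.67) and fell by a middling amount in 8226 (-0.58), and RPLP1 fell most in 8226 and rose by 0.26 in 5TGM1.

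**Figure D4:**
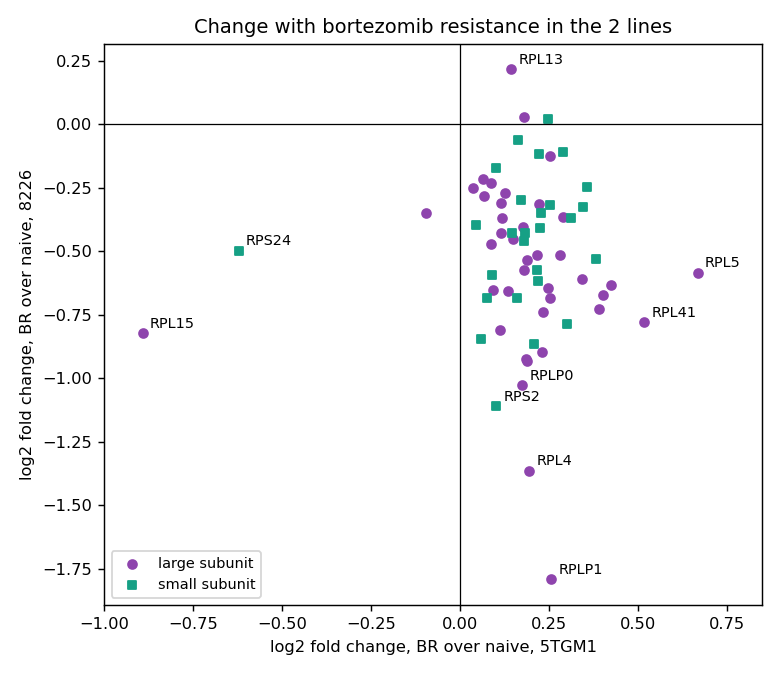
Log2 fold change of BR over naive cells in 5TGM1 (x axis) and 8226 (y axis) for the 67 members shared by symbol. Most points lie right of 0 and below 0, and RPL15 and RPS24 lie far to the left, at -0.89 and -0.62 on the x axis.

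In 8226 BR the size of a member's change went with the change of the genes around it. For each member the median log2 fold change was taken over the 20 nearest tested genes on each side that are not members, in the gene order of RefSeq on GRCh38.p14, on which 12035 of 13910 tested genes were placed. Across 71 members this median and the member's own value had a Pearson correlation of 0.69 and a Spearman correlation of 0.52 in BR, and of 0.31 and 0.17 in CR. With 10 or 50 neighbours on each side, windows added after the data were seen, Pearson's value in BR was 0.50 or 0.74, and without RPLP1 and RPL4 it was 0.62. The points share the same libraries, and 26 members share neighbours with another member. RPLP1 and RPL4 both lie on chromosome 15, share 18 neighbours and had neighbour medians of -0.84 and -0.68, and RPS2 on chromosome 16 and RPL29 on chromosome 3 had -0.84 and -0.85. RPLP0 on chromosome 12 fell by 1.03 beside neighbours at 0.07, so low neighbours did not go with every large fall. RPL13, the member called higher, had neighbours at 0.39, and RPS14, which was not called, at 0.47. All 71 members lay below their neighbours' median in BR, and 65 of 71 did so in CR. These counts largely restate the fall of the members. The members' median was -0.50 in BR and -0.41 in CR, against -0.03 and -0.0036 over all genes. Neither the counts nor the correlations were computed for genes that are not members. The relation is therefore not shown to be particular to ribosomal protein genes. In CR the neighbours of RPL7A had a median of -0.45 and those of RPS23 of -0.39. What the shared local change reflects was not tested.

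**Figure D5:**
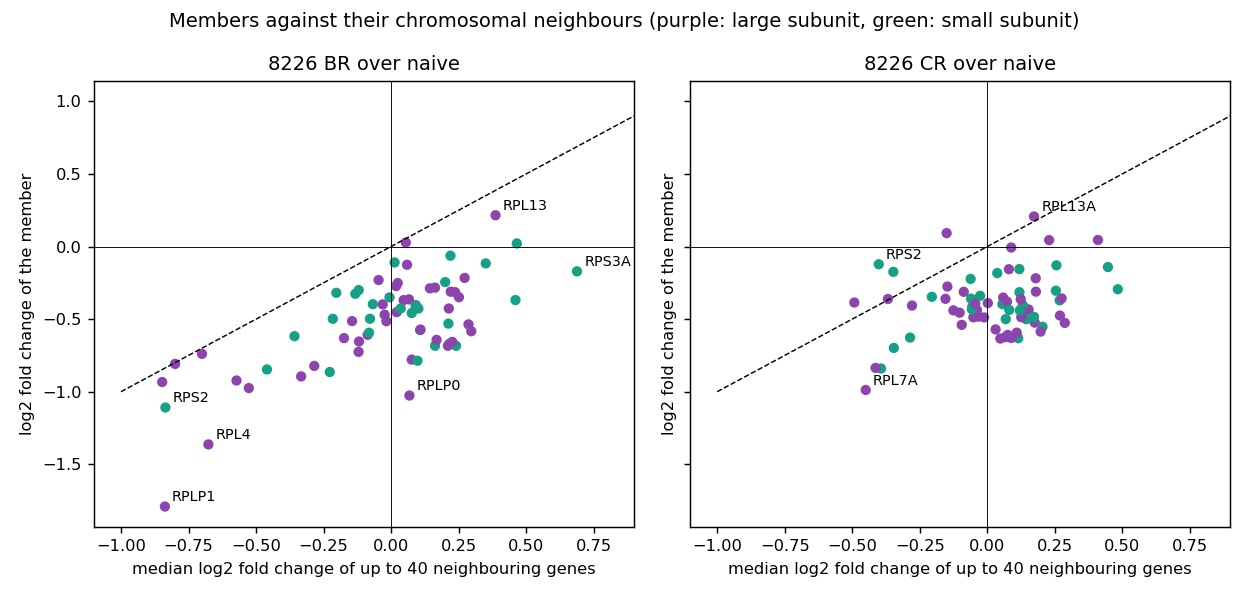
Log2 fold change of each 8226 member (y axis) against the median of up to 40 neighbouring non-member genes (x axis), BR over naive left and CR over naive right. The dashed line marks equal values. All BR points lie below it, and the lowest members, RPLP1 and RPL4, have low neighbours.

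Of the 5 ribosomal components that the choice of members left out and that were tested in each line, 4 rose and 0 fell in 5TGM1 BR, 4 fell and 1 rose in 8226 BR, and 3 fell and 1 rose in 8226 CR. Over all genes tested 34% rose and 33.2% fell in 5TGM1 BR, 38.2% rose and 41.6% fell in 8226 BR, and 35% rose and 36.7% fell in 8226 CR, and these shares hold for the other lists below. RPSA, which doubles as a laminin receptor, had 282, 319.8 and 349 CPM in 8226 BR, against 519.9, 605 and 684 CPM in naive 8226 (-0.93 ± 0.0963, edgeR adjusted p = 2.95e-07). FAU, fused to a ubiquitin-like protein, fell (-0.59 ± 0.0833), as did RPS27A (-0.30 ± 0.0855). GNB2L1, the scaffold RACK1, was the component that rose, with 1488, 1445 and 1591 CPM in BR, against 1140.0, 1178 and 1219 CPM in naive cells (0.36 ± 0.0547, edgeR adjusted p = 2.27e-05). Of 6 tested paralogues of ribosomal proteins in 8226 BR, 2 fell and 1 rose, no more in either direction than the share over all genes. The riser was RPL26L1 (0.88 ± 0.0873), which had 36.4 ± 0.817 CPM in BR and 19.8 ± 2.68 CPM in naive cells.

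Other mRNAs with the pyrimidine motif, mostly translation factors, were described from a list chosen with earlier results known. Of 24 tested, 9 rose and 6 fell in 5TGM1 BR, 1 rose and 14 fell in 8226 BR, 4 rose and 7 fell in 8226 CR, and 14 were higher and 4 lower in CR than in BR. Over all genes 39.9% were higher and 37% lower in CR than in BR. The counts in 5TGM1 and in 8226 CR were near or below the shares over all genes. EIF3E, a subunit of the initiation factor that loads the small subunit, had 197, 188 and 188 CPM in 8226 BR, against 712, 811 and 689 CPM in naive cells (-1.95 ± 0.0648, edgeR adjusted p = 2.90e-13). PABPC1, the poly(A)-binding protein, fell too (-1.15 ± 0.0604), with EEF1G, an elongation factor (-0.97 ± 0.0644), and EIF3H (-0.90 ± 0.0544). The chromosomal neighbours of these genes were not examined, so a change shared with genes around them was not tested. In 5TGM1 BR Btf3 rose by 0.56 ± 0.0424, and Ipo5 (-1.20 ± 0.0471), Tpt1 (-0.61 ± 0.0453) and Npm1 (-0.54 ± 0.0421) fell. Of the noncoding RNAs that host small nucleolar RNAs and carry the motif, 5 of 7 rose and 0 fell in 5TGM1 BR, 1 of 8 rose and 3 fell in 8226 BR, and 0 of 8 rose and 6 fell in 8226 CR, including SNHG8 (-0.86 ± 0.0949), where the count of falls in 8226 BR was below the share over all genes. SNHG1 fell in 8226 BR (-1.03 ± 0.0794).

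Genes of the mTORC1 and LARP1 axis, which acts on these mRNAs, were called in both directions at shares near or below those over all genes. Of 21 tested, 7 rose and 6 fell in 5TGM1 BR, 6 rose and 10 fell in 8226 BR, and 5 rose and 8 fell in 8226 CR. DDIT4, an inhibitor of mTORC1, went opposite ways in the lines, with 186, 188 and 191 CPM in 5TGM1 BR, against 72.1, 66.4 and 66.4 CPM in naive 5TGM1 (1.47 ± 0.0438), and 69.5, 65.6 and 72.7 CPM in 8226 BR, against 231, 244 and 271 CPM in naive 8226 (-1.84 ± 0.0636). RPS6KB1, the S6 kinase, fell in 5TGM1 BR (-0.42 ± 0.0432) and in 8226 BR (-0.86 ± 0.0613). Of 11 tested transcription factors of these genes in 8226, 3 rose and 5 fell in BR, and 7 rose and 2 fell in CR, the BR counts being near or below the shares over all genes. MYC had 703 ± 8.56 CPM in BR, against 913 ± 31.9 CPM in naive cells (-0.38 ± 0.0482), and 1079 ± 17.7 CPM in CR, against the same naive level (0.24 ± 0.0481). Of 13 chaperones of ribosomal proteins and 5S assembly factors, 5 rose and 6 fell in 8226 BR, and 6 rose and 4 fell in 8226 CR, with BCCIP lower in CR (-1.04 ± 0.0694). The BR counts of these and of the next list were near the shares over all genes. Of 16 genes that clear stalled ribosomes or unassembled subunits, 7 rose and 5 fell in 8226 BR, with ZNF598, which senses collided ribosomes, lower (-1.12 ± 0.0737).

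Members with near-identical copies may be undercounted, since multi-mapped reads were set aside. These made up 15.7% to 16.3% of reads in 5TGM1 BR and 15.3% to 15.9% in naive 5TGM1, and 9.80% to 10.1% in 8226 BR, 8.95% to 9.62% in 8226 CR and 10.4% to 10.9% in naive 8226. In each line 4 matching symbols were below the threshold. The human ones included RPL21, RPL17 and RPL36A, which was just outside with 8.69 ± 0.965 CPM in naive 8226, while the nearest members above the threshold were well clear of it, RPL41 with 30.8 ± 4.2 CPM and RPL22 with 123 ± 16.5 CPM. In mouse they were Rpl26, Rpl30, Rps27 and Rpl34, the nearest below it with 4.75 ± 0.468 CPM in naive 5TGM1, while the lowest members, Rpl29 with 284 ± 19 CPM and Rpl10a with 289 ± 23.8 CPM, lay far above it. The 28 ribosomal protein pseudogenes with their own row in the human tables summed to 33.8 to 36.2 CPM in BR and 31.3 to 31.9 CPM in CR, against 32.3 to 35.5 CPM in naive cells. Across the 71 human members, the number of pseudogenes named after a member and its change in 8226 BR had a Pearson correlation of 0.14.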

How the data were processed

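RNA of 15 libraries in 5 groups of 3 was sequenced, and the authors deposited a table of gene read counts per library, made with STAR per the submitters' processing notes. Its version and annotation are not given in the sources used here, and the notes name mm10, hg19, GRCm38 and GRCh37 without a role. Each deposited table holds 3 count columns, and column 4 was used, which held nearly all stranded reads, column 3 holding 1.43% to 2.12% of them. Rows for unmapped, multi-mapped, featureless and ambiguous reads were left out of library sizes.

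Genes passing filterByExpr were scaled by TMM and tested with edgeR 4.0.16 (R 4.3.3, limma 3.58.1) by quasi-likelihood F tests with Benjamini-Hochberg adjustment over all genes, calling an adjusted p below 0.05. SEs were derived from the F statistic. The 6 libraries of 5TGM1 were fitted alone and the 9 of 8226 together. The line difference used 12 libraries of symbols matching ignoring case. The fit was checked on counts simulated with the same fixed spread for every gene. The spread of these libraries differs between genes, so the check does not cover it. Members and gene lists were chosen with earlier results of these data known. Named members were the 3 largest called per comparison, subunit and direction, 14 members named for their roles, those beside the CPM threshold and, of other lists, up to 4 called genes. Alternatives were library sizes alone, median-of-ratios factors, DESeq2 1.42.0, no filter on low counts, reads counted without regard to strand, only the 6 libraries compared, members at 1 CPM, a replicate block and leaving out each library. Neighbour windows of other sizes and the relation without RPLP1 and RPL4 were added after the data were seen. Some members are counted but not reported by name here. Replicate libraries differed by more than the sampling of reads, and SDs cover the spread of 3 libraries.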

Additional observations from a re-analysis of the deposited data

Results flagged for a closer look

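The bortezomib-resistance change of ribosomal protein genes differed between the lines by a test of the difference itself. The 8226 change was called lower for 36 of 40 large-subunit members and 23 of 27 small-subunit members, and called higher for 0 and 0, where 34.4% of all genes tested were called lower and 30.5% higher. The largest differences, 8226 minus 5TGM1 on the log2 scale, were -2.05 for RPLP1, -1.56 for RPL4, -1.30 for RPL41, -1.21 for RPS2, -1.09 for RPS18 and -1.07 for RPS3. RPL41 was low in 8226, with means of 18.0 CPM in BR and 30.8 CPM in naive cells. Groups of 3 libraries were too small to test for single libraries that stand apart, but each library was left out in turn.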

How the results depend on the processing

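Under the alternatives 428 values of counts and shares moved by less than 1.5 times or 1 SD, and 22 moved by more. The 8226 BR large-subunit count of higher members, 1, was 0 with median-of-ratios factors, DESeq2 or only the 6 libraries, 2 with members at 1 CPM, and 0 to 2 leaving out 1 library. With library sizes alone the small-subunit count was 1 higher in 8226 BR, 5 higher and 8 lower in CR against BR, and each subunit had 1 higher in the line difference. Leaving out 1 library gave 1 to 2 large members lower in 5TGM1, 1 to 2 higher in 8226 CR, 4 to 13 large lower and 6 to 12 small higher in CR against BR, and 0 to 1 higher in each subunit of the line difference. Signs turned for values that were not called with all libraries. In 8226 BR these were RPL39 (-0.0020 and -0.0055 with median-of-ratios factors and DESeq2, -0.16 to 0.47 leaving out 1 library), RPS14 (-0.0090 and -0.012, -0.051 to 0.14) and RPS21 (0.12 with library sizes alone, -0.15 to 0.087). In 8226 CR, leaving out 1 library gave -0.026 to 0.16 for RPL22, -0.15 to 0.22 for RPL41 and -0.20 to 0.016 for RPS19. In CR against BR, library sizes alone gave -0.016 for RPL5, -0.081 for RPLP2 and -0.056 for RPS6, and leaving out 1 library gave -0.078 to 0.14 for RPLP2 and -0.044 to 0.38 for RPS27. In the line difference RPL39 was 0.035 with library sizes alone and -0.34 to 0.29 leaving out 1 library, RPL13 -0.017 to 0.18 and RPL15 -0.0048 to 0.16. The cause was not tested. Replicate numbers did not pair libraries (correlations of deviations from -0.11 to 0.16), and with a replicate block 32 large and 21 small members were higher in 5TGM1 BR, 40 and 22 lower in 8226 BR, and 37 and 22 lower in 8226 CR. With it Rps2 in 5TGM1 was not called (edgeR adjusted p = 0.0645), and RPL35 (-0.26), RPS14 (-0.22) and RPS21 (-0.22) were called lower in the line difference. Depth was 31709636 reads on genes or more, so replicate spread limits most members.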
